A study of Mus musculus with 13 samples.

Results

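The genes described here encode the T cell receptor complex, its co-receptor and the first signalling proteins behind it. They are Cd3e, Cd247, Cd4, Lck, Zap70, Lat, Lcp2, Cd5 and Cd6, taken by gene name from the count table, 9 of its 56748 genes. Spleen CD4 T helper cells of mice gave the 13 RNA libraries, which fall into 5 groups. All mice had received an NK1.1-depleting antibody (50 µg on days -2 and 5), carried Vk12653 myeloma, a transplantable mouse plasma cell tumour, given on day 0, and also carried the Foxp3-Thy1.1 reporter of regulatory T cells. On days 10, 13 and 16 they were given 20 µg of either an agonist antibody to 4-1BB, a co-stimulatory receptor of T cells, or control IgG, and spleens were taken on day 18. The sort kept cells positive for the T cell receptor and for CD4 and negative for Thy1.1.

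The Eomes-GFP mice carry a GFP reporter of Eomes, a T-box transcription factor of effector and memory lymphocytes. After 4-1BB their cells were divided into a GFP+ group (3 libraries) and a GFP- group (3 libraries), and after IgG they were kept undivided (2 libraries). The other mice are named Eomes-TKO, a construct that the labels do not describe, and gave undivided cells after 4-1BB (2 libraries) and after IgG (3 libraries). Ages are not given in the sources used here.

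In the T cell receptor complex the antigen-binding chains carry no signalling tail of their own and rely on the CD3 chains and the zeta chain, whose tails are phosphorylated by the kinase Lck, which the co-receptor CD4 brings to the receptor. The kinase ZAP-70 docks on the phosphorylated tails and then phosphorylates the adaptors LAT and SLP-76, on which the calcium and Ras branches assemble. CD5 and CD6 are scavenger-receptor family proteins that sit beside the receptor and adjust the strength of its signal.

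Total estimated counts were 6080975 to 10881146 per library, and levels are given as CPM, counts scaled by the TMM method to a common library size. Levels of Eomes itself were 570, 706 and 685 CPM in GFP+ and 1.36 to 16.8 CPM in the 10 libraries of the other groups. Eomes levels thus matched the labels of the GFP+ and GFP- libraries, and the undivided cells carry no GFP label. After IgG Eomes was lower in Eomes-TKO than in Eomes-GFP cells (2.5 and 15.4 CPM on average, edgeR adjusted p = 0.0219). After 4-1BB the Eomes-TKO libraries held 3.59 and 8.03 CPM, and the GFP- libraries 3.54, 1.83 and 2.26 CPM. Fixed marker lists gave a summed level of 2130 to 3760 CPM for CD4 T cells, at most 12.3 CPM for CD8 T cells 9.67 to 28.1 CPM for gamma-delta T cells and at most 3.34 CPM for B cells. The CD4 T cell list, which holds Cd4, was at 3430 to 3760 CPM in GFP+ libraries with 3 of 6 genes higher than in GFP-, where 20.7% of all genes tested were higher. The innate-like T and NK cell list was at 1.66 to 3.22 CPM in GFP+ libraries against 8.67 to 39.4 CPM elsewhere. Of 3 genes tested 2 were lower in GFP+ than in GFP-, where 16.5% of all genes tested were lower. These were Zbtb16 (0.633 and 12.8 CPM on average) and Klrb1c (0.495 and 1.49 CPM). Tyrobp (1.13 and 0.779 CPM) was not called, Klra8 was at 0.161 and 0 CPM, and Ncr1 was at 0 in both. The GFP+ libraries were higher for the myeloid list (49.6 to 82.5 CPM, of which Cd68 23.4 ± 3.56 and Itgam 17.2 ± 3.39, SD, n = 3) than the GFP- libraries (18.2 to 36.7 CPM) and the rest (9.3 to 19.6 CPM). Cd68 and Itgam were the 2 genes called higher than in GFP-, of 7 tested among the 8, near the 20.7% of all genes tested. Lyz2, Csf1r, S100a9, S100a8 and Fcer1g were not called against GFP-, with log2 differences of 0.61, 0.57, 0.36, 0.05 and −0.04. Against undivided Eomes-GFP cells after IgG 5 of the 7 were higher in GFP+, where 18.8% of all genes tested were. These were Cd68, Itgam, Lyz2, S100a8 and S100a9, the last 2 at 0 after IgG. In GFP- against the same cells 1 of the 7, Lyz2, was higher (0.654% of all genes tested). In the plasma cell list the GFP+ libraries summed to 129 to 148 CPM against 47.6 to 73.1 CPM elsewhere. Tnfrsf17 was at 0 in every group. Igkc was at 76.1 to 82 CPM in GFP+, at 7.34 to 15.6 CPM in Eomes-TKO after 4-1BB and at most 1.67 CPM elsewhere. Jchain was at 3.23 to 4.68 CPM in Eomes-TKO after 4-1BB and at most 0.554 CPM elsewhere. Igkc was the only gene called higher than in GFP-, of 3 tested among the 6 (20.7% of all genes tested were higher). Mean levels in GFP+ and GFP- were 55.9 and 57.5 CPM for Xbp1, 0.272 and 0.0813 for Jchain, 0.159 and 0.233 for Sdc1, and 0 and 0.0708 for Mzb1. The regulatory T cell list split: Ikzf2 was higher in GFP+ than in GFP- (569 and 68.7 CPM on average), Il2ra lower (3.38 and 11.6 CPM, adjusted p = 0.00139) and Foxp3 lower (0.495 and 1.44 CPM, adjusted p = 0.0432). Foxp3 was near the floor, since 3 counts equal 0.322 to 0.416 CPM in the GFP+ libraries. The summed level of that list, mostly Ikzf2, was 544 to 626 CPM in GFP+ and 64 to 111 CPM elsewhere. The part of these transcripts in the results below was not tested, and in bulk RNA fewer cells of a type and less RNA per cell cannot be told apart.

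The first comparison asked how cells that had switched on Eomes differed from cells that had not, among treated Eomes-GFP mice. GFP+ and GFP- libraries of the same number share a prefix read as the animal, a pairing that the main model does not use. Of the 9 genes, 7 rose in GFP+ cells and 0 fell, where 20.7% of the 14059 genes tested rose and 37.1% changed in either direction (edgeR, adjusted p at 0.05). Zap70 rose 2.02-fold and Cd3e 1.74-fold, while Cd4, Lat, Lck, Cd247 and Lcp2 rose 1.27-fold to 1.42-fold. Cd5 missed the threshold and Cd6 differed by 0.00 on the log2 scale. The median log2 difference of the 9 genes was 0.42, against 0.02 over all genes tested. For 8 of the 9 genes the libraries of the groups did not overlap, as for 51.3% of all genes tested.

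**Figure D1:**
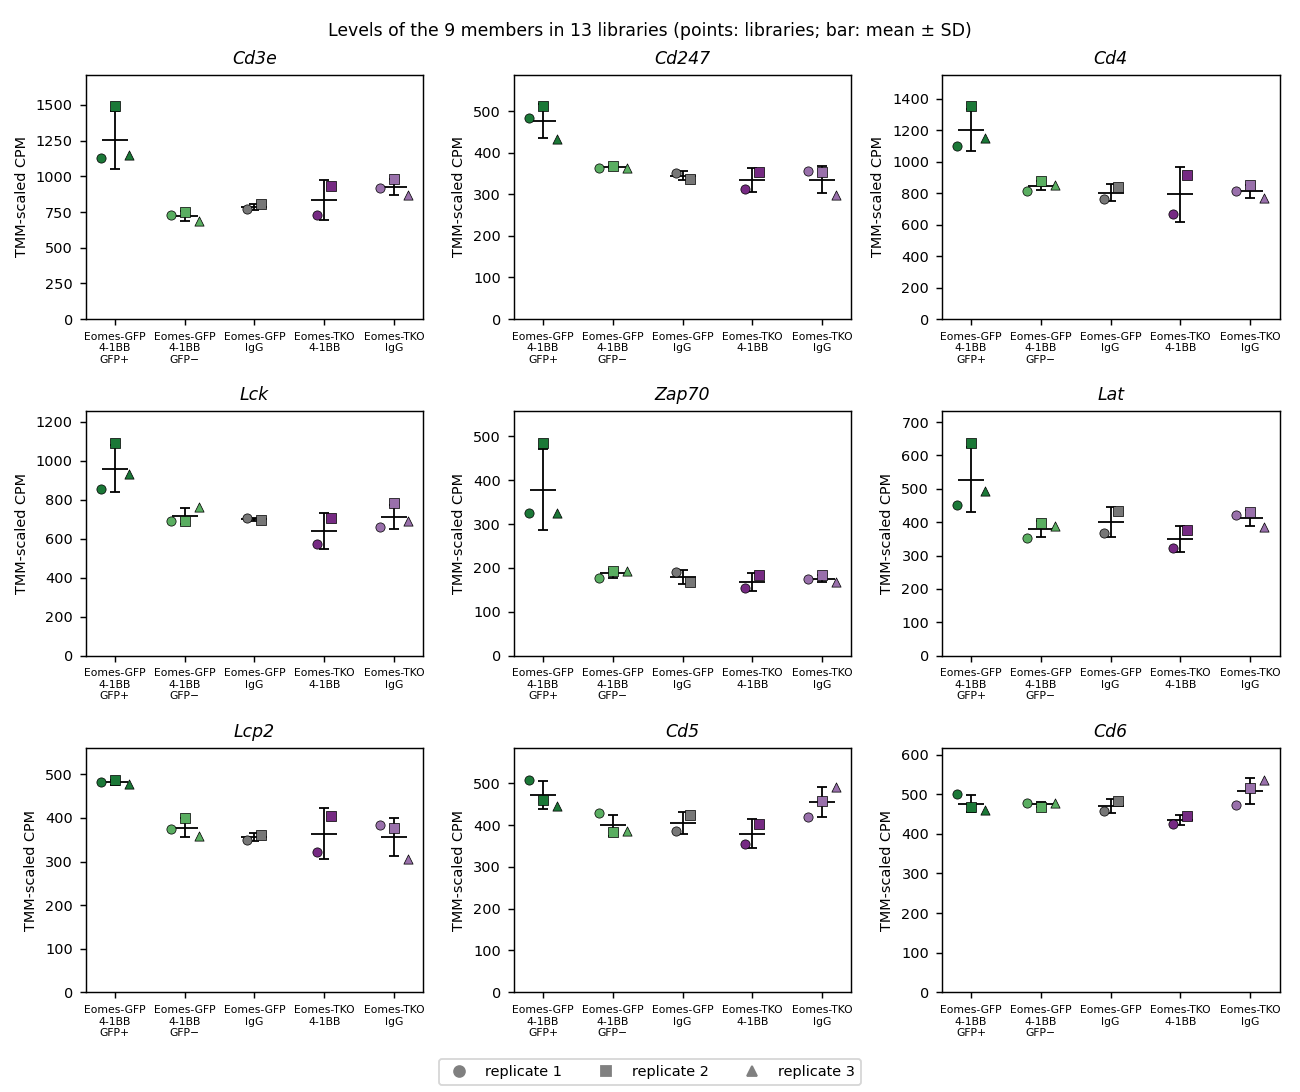
Levels of the 9 genes in TMM-scaled CPM (y axes from 0) in the 13 libraries, by group on the x axis; each point is a library, its shape the replicate number, and the bars are the mean ± SD. The 3 GFP+ libraries stand above every other library for Cd3e, Cd247, Cd4, Lck, Zap70, Lat and Lcp2, and not for Cd5 and Cd6. The share of all genes that stand apart from every other library was not counted. In either direction, 51.3% of all genes tested did not overlap between GFP+ and GFP-, and 53% between GFP+ and Eomes-TKO after 4-1BB.

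Among the receptor chains, Cd3e encodes the epsilon chain, which pairs with the gamma and delta chains of CD3. Cd3e was at 1130, 1490 and 1150 CPM in GFP+ cells, against 726, 753 and 684 CPM in GFP- cells. In undivided cells it was at 771 and 803 CPM in Eomes-GFP after IgG, at 732 and 931 CPM in Eomes-TKO after 4-1BB, and at 920, 982 and 872 CPM in Eomes-TKO after IgG. All GFP+ libraries lay above all others, and the GFP- group had the lowest mean of the 5. The GFP+ mean of 1260 ± 201 CPM exceeded the GFP- mean of 721 ± 34.7 CPM (SD, n = 3 each) by 0.80 ± 0.12 on the log2 scale (SE, adjusted p = 0.000118).

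Cd247, the zeta chain, supplies most of the phosphorylation motifs of the complex. Its level was 484, 511 and 432 CPM in GFP+ and 364, 369 and 363 CPM in GFP-. The other groups held 352 and 337 CPM (Eomes-GFP after IgG), 313 and 354 CPM (Eomes-TKO after 4-1BB), and 355, 353 and 298 CPM (Eomes-TKO after IgG). The GFP+ libraries were again the 3 highest, and the GFP- libraries, close to one another, lay above the other 7. Between GFP- and Eomes-GFP after IgG 30% of all genes tested did not overlap, and between GFP- and Eomes-TKO after 4-1BB 22.3%. Cd247 was not called in either comparison (edgeR, adjusted p = 0.944 and 0.906). The log2 difference between GFP+ and GFP- was 0.38 ± 0.10 (SE, adjusted p = 0.00664).

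Cd4, the co-receptor for class II major histocompatibility complex molecules, was part of the sort gate in every group at the protein level. It was at 1100, 1350 and 1150 CPM in GFP+ and at 815, 874 and 849 CPM in GFP-. The remaining libraries held 764 and 841 CPM (Eomes-GFP after IgG), 668 and 915 CPM (Eomes-TKO after 4-1BB), and 816, 851 and 769 CPM (Eomes-TKO after IgG). Thus the GFP+ cells were above cells that had passed the same CD4 gate, while the other 4 groups overlapped in the order of their means. GFP+ exceeded GFP- by 0.50 ± 0.12 on the log2 scale (SE, adjusted p = 0.0036).

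Of the kinases, Lck starts the cascade. Lck was at 855, 1090 and 931 CPM in GFP+ and at 688, 692 and 761 CPM in GFP-. Undivided cells held 705 and 694 CPM (Eomes-GFP after IgG), 574 and 705 CPM (Eomes-TKO after 4-1BB), and 660, 781 and 692 CPM (Eomes-TKO after IgG). The GFP+ libraries did not overlap the rest, and the next 4 groups overlapped each other in order. The log2 difference from GFP- was 0.42 ± 0.11 (SE, adjusted p = 0.00825).

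Zap70, the kinase that docks on the phosphorylated CD3 and zeta tails, had the widest range of group means of the 9 genes, with a highest mean 2.25 times the lowest. Its levels were 326, 485 and 325 CPM in GFP+ and 176, 194 and 193 CPM in GFP-. The other groups held 191 and 168 CPM (Eomes-GFP after IgG), 154 and 183 CPM (Eomes-TKO after 4-1BB), and 174, 184 and 168 CPM (Eomes-TKO after IgG). Outside GFP+ all 10 libraries lay between 154 and 194 CPM, and the lowest GFP+ library was at 325 CPM. GFP+ exceeded GFP- by 1.01 ± 0.14 on the log2 scale (SE, adjusted p = 4.79e-05). Zap70 was also the only one of the 9 whose difference passed a test against a fold of 1.5 (adjusted p = 0.00783, edgeR), which 15.3% of all genes tested passed (8.59% higher), so a count of 1 in 9 is near the share of all genes.

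Both adaptors behind ZAP-70 rose. Lat, the membrane scaffold, was at 452, 637 and 494 CPM in GFP+ and at 353, 398 and 387 CPM in GFP-. Elsewhere Lat was at 368 and 433 CPM (Eomes-GFP after IgG), 322 and 376 CPM (Eomes-TKO after 4-1BB), and 421, 431 and 385 CPM (Eomes-TKO after IgG). Its lowest GFP+ library stood just above the highest of the others, and the log2 difference from GFP- was 0.48 ± 0.12 (SE, adjusted p = 0.00774). Lcp2, which encodes SLP-76, was at 482, 488 and 477 CPM in GFP+ and at 375, 401 and 358 CPM in GFP-. Its other values were 350 and 362 CPM (Eomes-GFP after IgG), 323 and 405 CPM (Eomes-TKO after 4-1BB), and 385, 378 and 305 CPM (Eomes-TKO after IgG). The GFP+ libraries were close to one another and above all others, and the log2 difference from GFP- was 0.35 ± 0.11 (SE, adjusted p = 0.0195). Lcp2 lost its call in 7 of 15 alternatives.

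Neither scavenger-receptor gene passed the test. Cd5, an inhibitory receptor whose level in T cells is tuned by receptor signalling, was at 509, 460 and 446 CPM in GFP+ and at 429, 384 and 385 CPM in GFP-. Its other libraries held 387 and 424 CPM (Eomes-GFP after IgG), 355 and 404 CPM (Eomes-TKO after 4-1BB), and 419, 457 and 491 CPM (Eomes-TKO after IgG), so GFP+ overlapped the Eomes-TKO cells after IgG. The log2 difference of 0.24 ± 0.10 between GFP+ and GFP- (SE, 95% interval 0.03 to 0.45) had an adjusted p of 0.0661. Cd6, which binds CD166 on other cells, was at 501, 467 and 461 CPM in GFP+ and at 478, 468 and 479 CPM in GFP-. The undivided groups held 458 and 483 CPM (Eomes-GFP after IgG), 426 and 444 CPM (Eomes-TKO after 4-1BB), and 472, 515 and 537 CPM (Eomes-TKO after IgG). For Cd6 the 95% interval of the GFP+ and GFP- difference ran from −0.17 to 0.18 on the log2 scale (adjusted p = 0.978), and its highest group mean was 1.17 times its lowest.

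One library weighed on these counts. GFP+ replicate 2 was the highest of its group for 7 of the 9 genes, where it was the highest for 43.2% of all genes tested, and the 9 levels summed to 6967 CPM in it against 5840 and 5869 CPM in the other GFP+ libraries. Without it 4 of the 9 genes passed, namely Cd3e, Cd247, Cd4 and Zap70, and Lck, Lat and Lcp2 did not; 30.9% of all genes passed in that fit (15.7% higher). With upper-quartile scaling in place of TMM, which moved the median of all genes to −0.12 and the share of called genes that were higher from 55.7% to 41.4%, Cd247 and Lcp2 also missed the threshold and the other 5 passed (15.5% of all genes higher).

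**Figure D2:**
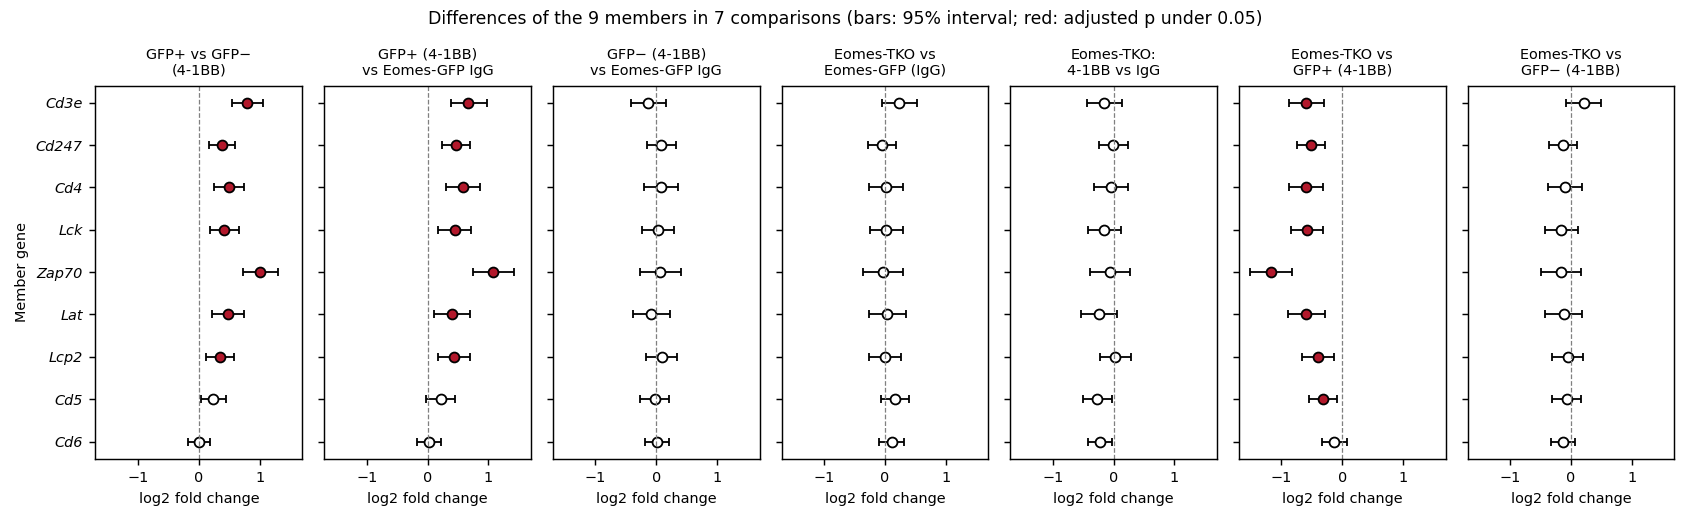
Log2 differences of the 9 genes (rows) in 7 comparisons (panels), with points for the edgeR estimates, bars for the 95% intervals and red points for an adjusted p under 0.05; the x axes are log2 fold changes. The 3 panels with GFP+ cells hold all the called genes, with Zap70 farthest from 0, and the other 4 hold none.

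Where the genes start in the genome was read from the RefSeq promoter table on GRCm38.p6, an older build than that of the counts. It held 7 of the 9 genes in 10 windows of 250 bases before the start, with 3 starts for Zap70, 2 for Lck and none for Cd4 and Cd6. The windows of Zap70 and Cd3e, with the largest differences, and of Cd5, which missed the threshold, are printed 5′ to 3′ on the strand of the gene, with the match nearest to the start in capitals. The positions are chr1:36761548-36761797 on the plus strand for Zap70, chr9:45009612-45009861 on the minus strand for Cd3e and chr19:10738975-10739224 on the minus strand for Cd5.
Zap70: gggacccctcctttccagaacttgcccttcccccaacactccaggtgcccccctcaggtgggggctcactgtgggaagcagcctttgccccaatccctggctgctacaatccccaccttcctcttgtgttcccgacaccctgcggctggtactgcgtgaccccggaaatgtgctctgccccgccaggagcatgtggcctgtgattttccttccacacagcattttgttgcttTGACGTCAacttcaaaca
Cd3e: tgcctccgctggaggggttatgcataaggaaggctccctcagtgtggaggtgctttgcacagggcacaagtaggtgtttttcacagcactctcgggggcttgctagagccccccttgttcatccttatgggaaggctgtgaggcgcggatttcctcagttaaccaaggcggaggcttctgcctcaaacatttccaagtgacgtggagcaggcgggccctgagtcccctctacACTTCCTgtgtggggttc
Cd5: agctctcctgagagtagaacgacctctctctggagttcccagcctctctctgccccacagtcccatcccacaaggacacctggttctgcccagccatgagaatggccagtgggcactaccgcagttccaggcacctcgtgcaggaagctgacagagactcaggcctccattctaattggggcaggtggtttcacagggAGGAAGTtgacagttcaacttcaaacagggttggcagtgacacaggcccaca
The capitals mark TGACGTCA, the cyclic AMP response element (CRE), 18 bases before the first Zap70 start, and the ETS motif AGGAAGT, read as ACTTCCT 18 bases before the Cd3e start and as AGGAAGT 52 bases before the Cd5 start.

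In all, 6 motifs were searched on both strands in the 10 windows and in 32851 promoter windows of the same length. ETS (AGGAAGT) stood in 5 of the 10 windows and in 7.69% of all windows. The 5 were those of Cd247, Cd3e, Cd5 and both Lck starts. The E-box CAGGTG also stood in 5 of 10 (17.2% of all), the RUNX motif TGTGGTT in 1, a Lck start (4.4% of all), and the CRE in the 1 Zap70 window (1.55% of all). The T-box motif GGTGTGA, of the family to which Eomes belongs, and the TCF1/LEF1 motif CTTTGAT stood in 0 of the 10 windows (3.33% and 3.21% of all). No motif contains another, but the E-box and the T-box motif share letters at their ends and matches could overlap. A match describes letters and shows no binding, and a window without a match says only that these letters are not in it. Cd5 holds the ETS letters and missed the threshold, and Zap70, with the largest difference, holds them in none of its 3 windows.

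Ratios within a library need no scaling between libraries. Counts of Cd247 per count of Cd3e were lower in GFP+ (log2 ratio −1.39 ± 0.16, SD, n = 3) than in GFP- (−0.98 ± 0.06), a difference of −0.41 with no overlap of libraries (two-sided exact permutation p = 0.1, adjusted 0.15 over 3 ratios). With 3 libraries against 3 the exact permutation test can give no p below 0.1. In the other groups the mean log2 ratio was −1.19 (Eomes-GFP after IgG), −1.31 (Eomes-TKO after 4-1BB) and −1.47 (Eomes-TKO after IgG), so the GFP- cells held the most Cd247 per Cd3e and the GFP+ cells lay within the range of undivided cells. Lck per Cd4, the kinase and the co-receptor that binds it, differed by −0.08 (−0.33 ± 0.03 and −0.25 ± 0.09, exact permutation p = 0.3). Cd5 per Cd6 was −0.01 ± 0.04 in GFP+ and −0.25 ± 0.09 in GFP-, a difference of 0.24 (exact permutation p = 0.1, adjusted 0.15), and its group means in undivided cells were −0.21, −0.20 and −0.16.

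**Figure D3:**
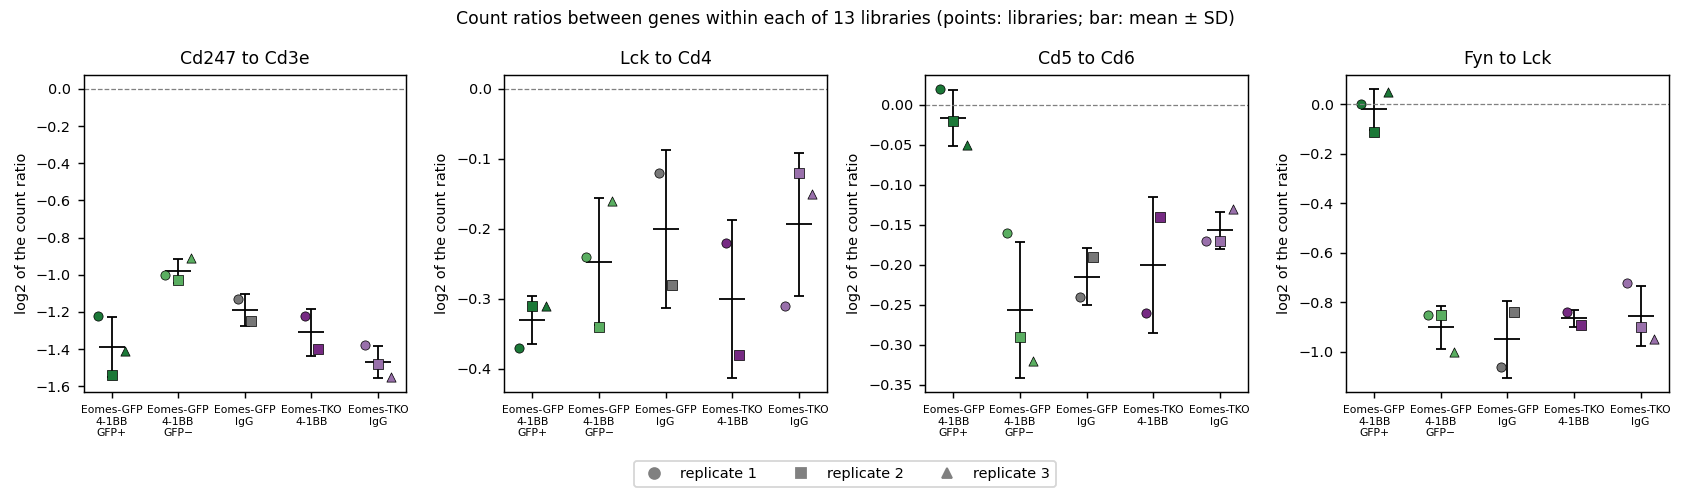
Log2 ratios of counts of Cd247 to Cd3e, Lck to Cd4, Cd5 to Cd6 and Fyn to Lck (y axes, 1 panel each) in the 13 libraries by group (x axes); points are libraries, their shape the replicate number, and bars the mean ± SD. GFP+ and GFP- libraries separate for Cd247 to Cd3e, Cd5 to Cd6 and Fyn to Lck, a ratio chosen after its values were seen, and overlap for Lck to Cd4.

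Beside the 9 genes, 53 others of the pathway were followed in 5 lists. In GFP+ against GFP- cells 23 rose and 12 fell, with a median log2 difference of 0.24 against 0.02 over all genes tested, and the shares of all genes tested were 20.7% and 16.5%. Of 6 other receptor genes, 2 rose and 1 fell. Cd3d, the delta chain, rose by 0.51 ± 0.14 on the log2 scale (SE, adjusted p = 0.0113), and Trac, the constant region of the alpha chain, by 0.42 ± 0.15 (adjusted p = 0.0375). Trat1, an adaptor that associates with the receptor, fell by 0.58 ± 0.10 on the log2 scale. Cd3g, the gamma chain, varied widely between replicates, at 440, 223 and 442 CPM in GFP+ and 276, 270 and 205 CPM in GFP-, and did not pass (adjusted p = 0.279). Trbc1 and Trbc2, near-identical constant regions of the beta chain whose reads can be split uncertainly, differed by 0.24 ± 0.11 and 0.28 ± 0.15 and did not pass either.

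Among 5 other kinases, 2 rose and 1 fell, where 20.7% and 16.5% of all genes tested did. Fyn, the Src-family kinase that shares substrates with Lck, was at 856, 1010 and 967 CPM in GFP+ and at 383, 383 and 380 CPM in GFP-. The log2 difference of 1.30 ± 0.10 (SE, 95% interval 1.09 to 1.52, adjusted p = 2.03e-07) was larger than the estimate for each of the 9 genes, a difference that was not tested. Tec, a kinase that acts on phospholipase C, rose by 1.31 ± 0.24 on the log2 scale.

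The list of phosphatases and negative regulators held the largest differences, with 10 of 17 higher, 4 lower and a median of 0.48. Lax1, a membrane adaptor that dampens receptor signalling, rose from 76.1 to 374 CPM, a log2 difference of 2.30 ± 0.14 (SE, adjusted p = 1.51e-08). Ubash3b, a phosphatase that acts on ZAP-70, rose by 1.87 ± 0.11, Sla, an adaptor that promotes receptor degradation, by 1.55 ± 0.10, and Ptpn22, a phosphatase of Lck and ZAP-70, by 1.53 ± 0.10. Ptprc, the CD45 phosphatase that can both activate and restrain Lck, rose by 0.48 ± 0.10 (adjusted p = 0.00161). In the opposite direction Pag1, which anchors the Lck inhibitor Csk at the membrane, was at 88.6, 76.3 and 72.6 CPM in GFP+ and at 371, 348 and 381 CPM in GFP- (log2 difference −2.21 ± 0.11). Ptpn6, the SHP-1 phosphatase, fell by 1.09 ± 0.19 and Dgka, a kinase that removes diacylglycerol, by 0.77 ± 0.08 on the log2 scale.

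Other adaptors and effectors split, with 3 of 16 higher, 6 lower and a median of −0.06. Of all genes tested 20.7% were higher and 16.5% lower, so the count of higher genes was near that share. Tespa1, which takes part in thymocyte receptor signalling, fell by 0.98 ± 0.16 on the log2 scale, and Plcg1, the phospholipase recruited by LAT, differed by −0.05 ± 0.08 (adjusted p = 0.633). In the calcium and NFAT list 6 of 9 rose and 0 fell, with a median of 0.37. Nfatc1, the NFAT factor that amplifies its own expression after receptor signals, rose from 378 to 763 CPM, by 1.02 ± 0.10 on the log2 scale (SE, adjusted p = 1.31e-06).

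**Figure D4:**
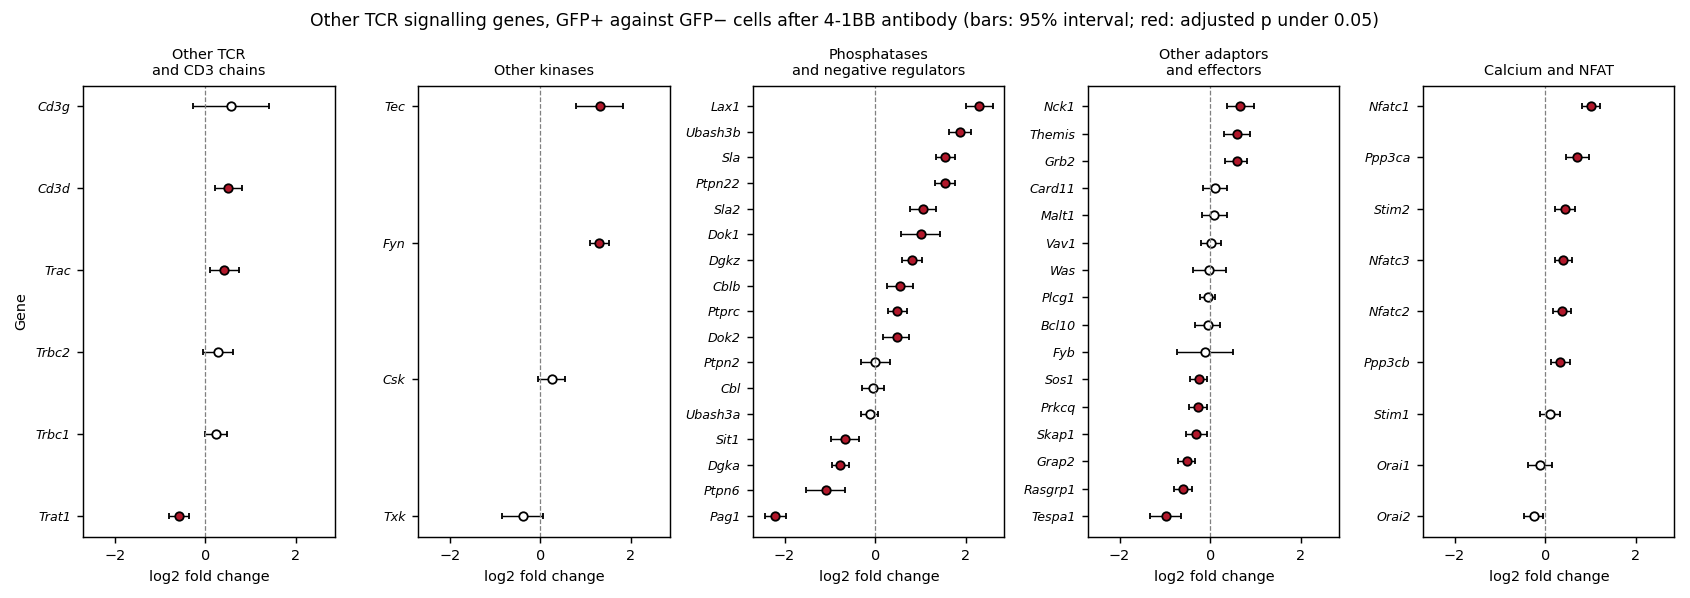
Log2 differences between GFP+ and GFP- cells (x axes) of the other pathway genes reported here, 1 panel for each of 5 lists and 1 row for each gene; points are edgeR estimates, bars the 95% intervals, and red points have an adjusted p under 0.05. The 17 phosphatases and negative regulators spread from −2.21 (Pag1) to 2.30 (Lax1), a wider range of estimates than the 0.00 to 1.01 of the 9 genes.

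GFP+ cells were next compared with undivided Eomes-GFP cells after IgG, which differ from them in both treatment and division. The GFP+ libraries are those of the first comparison, so the results are not independent of it. Again 7 of the 9 genes rose and 0 fell, where 18.8% of all genes tested rose and 34.2% changed in either direction, and the median was 0.45 against 0.00. Zap70 rose by 1.08 ± 0.16 on the log2 scale (SE, adjusted p = 9.65e-05), Cd3e by 0.67 ± 0.14 and Cd4 by 0.58 ± 0.13, and Cd247, Lck, Lcp2 and Lat rose by 0.47, 0.45, 0.44 and 0.40. Cd5 differed by 0.22 ± 0.11 (adjusted p = 0.145) and Cd6 by 0.02 ± 0.09 (adjusted p = 0.901). Lat (adjusted p = 0.0405) lost its call in 9 of 14 alternatives. With either of the 2 IgG libraries left out, which leaves that group with 1 library assumed to vary like the others, 3 of the 9 passed, Cd3e and Zap70 with Cd247 (without replicate 1) or with Cd4 (without replicate 2), where 21.5% and 22.2% of all genes passed (11.2% and 11.9% higher). Upper-quartile scaling moved the median of all genes to −0.14 and the share of called genes that were higher from 54.9% to 41.9%, with 5 of the 9 called higher (15.2% of all genes). Of the 53 other genes 21 rose and 10 fell (18.8% and 15.4% of all genes tested), or 20 in all without IgG replicate 1, with Lax1 (2.16), Sla (1.55), and Ptpn22 and Ubash3b (1.5 each) at the top and Pag1 (−2.25), Tespa1 (−1.17), Ptpn6 (−1.11) and Trat1 (−0.83) at the bottom, as log2 differences.

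Eomes-TKO cells after 4-1BB were compared with GFP+ cells, which had the same treatment and also differ in genotype and division. Of the 9 genes 8 were lower and 0 higher in Eomes-TKO, where 18.8% of all genes tested were lower and 34.6% changed in either direction, with a median of −0.58 against 0.00. The libraries of all 9 genes did not overlap, as for 53% of all genes tested. Zap70 fell by 1.17 ± 0.16 on the log2 scale (SE, adjusted p = 5.22e-05), and Cd4, Cd3e, Lat, Lck, Cd247, Lcp2 and Cd5 by 0.60, 0.59, 0.59, 0.58, 0.51, 0.40 and 0.32. Cd5 (adjusted p = 0.0377) lost its call in 10 of 14 alternatives and Lcp2 in 8, and Cd6 differed by −0.13 ± 0.09 (adjusted p = 0.307). Of the 53 other genes 12 were higher and 20 lower (15.7% and 18.8% of all genes tested), with Pag1 (2.11), Tespa1 (1.13), Ptpn6 (0.87) and Dgka (0.83) the highest and Lax1 (−2.65), Ptpn22 (−1.69), Sla (−1.59) and Ubash3b (−1.49) the lowest log2 differences.

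This count rested on 1 library. Eomes-TKO 4-1BB replicate 1, the shallowest library, was the lower of its pair for 9 of the 9 genes, as it was for 51% of all genes tested, and the 9 levels summed to 3868 CPM in it and to 4716 CPM in replicate 2. Without it, which leaves 1 library in the group, only Zap70 of the 9 passed, where 20.7% of all genes passed and 10.6% were lower, so the share of the 9 was then near that of all genes. With the groups compared fitted alone 3 passed (Cd247, Lck and Zap70), where 25.3% of all genes passed and 13.8% were lower. Upper-quartile scaling moved the median of all genes to 0.16 and the share of called genes that were higher in Eomes-TKO from 45.6% to 60.8%, with 6 of the 9 called lower (14.4% of all genes).

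The remaining 4 comparisons leave out the GFP+ cells, and none of the 9 genes passed in any of them (0 with edgeR, DESeq2 and limma-voom alike). GFP- cells after 4-1BB against undivided Eomes-GFP cells after IgG gave log2 differences of −0.13 for Cd3e, −0.08 for Lat, −0.02 for Cd5, 0.01 for Cd6, 0.03 for Lck, 0.07 for Zap70, 0.08 for Cd4 and Cd247 and 0.09 for Lcp2. The 95% intervals reached from −0.41 to 0.40. Of the 9 genes 0 had an unadjusted p under 0.05, where 8.76% of all genes tested had one and 0.761% passed after adjustment. In GFP- cells Eomes was lower than in these undivided cells (2.54 and 15.4 CPM on average). Eomes-TKO after 4-1BB against GFP- cells gave log2 differences of 0.21 for Cd3e, −0.05 for Lcp2, −0.07 for Cd5, −0.10 for Cd4, −0.12 for Lat, −0.13 for Cd247 and Cd6 and −0.16 for Lck and Zap70. The intervals reached from −0.49 to 0.49, with 0 of the 9 at an unadjusted p under 0.05 (6.97% of all genes tested) and 0.0427% of all genes tested called.

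Eomes-TKO against Eomes-GFP cells, both after IgG, gave log2 differences of −0.04 for Cd247, −0.03 for Zap70, 0.00 for Lcp2, 0.02 for Cd4 and Lck, 0.04 for Lat, 0.11 for Cd6, 0.17 for Cd5 and 0.23 for Cd3e. The intervals reached from −0.36 to 0.52, with 0 of the 9 at an unadjusted p under 0.05 (3.06% of all genes tested) and 0.0142% of all genes tested called. For Cd3e the difference was 0.23 ± 0.13 (SE, unadjusted p = 0.105, adjusted p = 1), and its 3 Eomes-TKO libraries (872 to 982 CPM) lay above the Eomes-GFP libraries (771 and 803 CPM). Cd3e was the only 1 of the 9 genes whose libraries did not overlap, where 18.3% of all genes tested did not.

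Treatment within Eomes-TKO gave log2 differences of 0.03 for Lcp2, −0.01 for Cd247, −0.04 for Cd4, −0.06 for Zap70, −0.15 for Cd3e and Lck, −0.22 for Cd6, −0.24 for Lat and −0.27 for Cd5. The intervals reached from −0.54 to 0.29, and 0.0427% of all genes tested were called. Cd5 (−0.27 ± 0.11, SE, unadjusted p = 0.0297) and Cd6 (−0.22 ± 0.09, unadjusted p = 0.0306) were the 2 of 9 with an unadjusted p under 0.05 (3.6% of all genes tested), and both had an adjusted p of 1. Cd5 was at 355 and 404 CPM after 4-1BB and at 419 to 491 CPM after IgG, and Cd6 at 426 and 444 CPM and at 472 to 537 CPM. These and Lat (−0.24 ± 0.14, unadjusted p = 0.107) were the 3 genes whose libraries did not overlap, where 15.9% of all genes tested did not. Among the 53 other genes 0 passed in each of these 4 comparisons with edgeR.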

How the data were processed

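RNA was measured by sequencing of ribosome-depleted total RNA (11 ng, per the labels' protocols). Estimated counts by gene were deposited by the authors in 1 table. Salmon 1.5.2 and STAR 2.7.10a, Trim Galore 0.6.7 with cutadapt 3.4, and the GRCm39 build are named in the submitters' processing notes. Of 47 library columns, 13 matched the labels and 34 were not used here. Between 6.25% and 7.33% of values per library were not whole, and all were rounded. Differences were tested with edgeR 4.0.16 (R 4.3.3): TMM scaling, filterByExpr (14059 genes), robust quasi-likelihood test, Benjamini-Hochberg adjustment over all genes at 0.05, 1 model of 5 groups with 8 residual degrees of freedom, two-sided. The standard error is the log2 difference divided by the square root of F. DESeq2 1.42.0, limma-voom 3.58.1, other scalings and filters, and left-out libraries were tried, and the edgeR step was tested on simulated data.

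GFP+ and GFP- libraries of the same number share a library prefix, read as the animal. Their deviations from group means correlated at 0.32, 0.11 and 0.06, and those of other GFP+ and GFP- pairs at −0.25 to 0.15. Nothing else in the labels shows replicates to be separate animals, so p-values measure the spread between libraries. Replicates differed beyond counting noise (chi-square per degree of freedom 8.03 to 31).

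All 9 genes are named in every comparison, and of the other pathway genes up to 4 in each direction with the largest called change. Cd3d, Cd3g, Trac, Trbc1, Trbc2, Fyn, Plcg1 and Ptprc are also named, in the first comparison. Trat1, Tec and Nfatc1 in the first comparison were named after their values were seen. Some genes of the lists are not reported here. The 9 genes, the lists and the motifs were chosen with earlier results of these data known.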

Additional observations from a re-analysis of the deposited data

How the results depend on the processing

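Zap70 passed in every alternative of the 3 comparisons with GFP+ cells. Tested against a fold of 1.5, 1 of the 9 genes (Zap70) passed in each of them, and 14, 11 and 10 of the 53 other genes passed against GFP-, against IgG and in Eomes-TKO, where 15.3%, 15.7% and 15.3% of all genes passed. Leaving out 1 library gave 4 to 7 genes called against GFP-, 3 to 7 against IgG (20 to 30 of the 53 others) and 1 to 8 in Eomes-TKO, where the groups fitted alone gave 3. The share of all genes called was 29.7% to 32.7%, 21.5% to 31.4% and 20.7% to 31.9% in those left-out fits and 25.3% in the last. Without a filter on low counts 1 of the 53 others passed in GFP- against IgG (2.2% of all genes). With the replicate block 7 genes passed against GFP-, the pairs that share a prefix, and 3 against IgG, where only a number is shared (the cause was not tested). In Eomes-TKO against GFP+ it gave 6. All genes called were 42.7%, 26.4% and 22.5%.

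Cd6, near 0, changed sign without being called. Against GFP- it was −0.01 with RLE scaling and with DESeq2, −0.13 with upper-quartile scaling, −0.02 without a filter, −0.04 with a filter at a mean log2 CPM of 2, −0.04 with the groups fitted alone, −0.04 with the replicate block, and −0.06 to 0.01 with libraries left out. Against IgG it was −0.12 with upper-quartile scaling, −0.01 without a filter, −0.02 with the stricter filter, −0.01 with the groups fitted alone, and −0.05 to 0.06 with libraries left out. In Eomes-TKO against GFP+ it was 0.03 with upper-quartile scaling.

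Groups of 2 or 3 libraries limit the precision, and the exact permutation test of ratios cannot pass 0.05.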

Other observations

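For the 3 of the 9 genes with the widest range of group means, the genes of most similar level across libraries were sought among 5295 genes of at least moderate level, by the Pearson correlation of log2 CPM. These are descriptions, and libraries share depth and group: the GFP+ libraries stand apart, so the value without them is given too. Zap70 was closest to Arl6ip1 (0.995 over 13 libraries, 0.89 over the 10 without GFP+), Abr (0.993 and 0.87) and Unc119b (0.992 and 0.86). Cd3e was closest to Gpr65 (0.973 and 0.88), B4galnt1 (0.972 and 0.92) and Ucp2 (0.968 and 0.87). Cd4 was closest to Prkar1a (0.992 and 0.95), Lcp1 (0.983 and 0.92) and Ppp2cb (0.982 and 0.93).

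The balance of the Src-family kinases Fyn and Lck, looked at after their values were seen and therefore not tested, separated the GFP+ libraries from all others. The log2 ratio of Fyn to Lck counts was 0.00, −0.11 and 0.05 in the GFP+ libraries and −1.06 to −0.72 in the other 10 libraries.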
